A study of Mus musculus with 9 samples.

Results

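The 8 genes Fos, Fosb, Fosl1, Fosl2, Jun, Junb, Jund and Atf3 encode subunits of AP-1, and they were chosen by the gene symbol that the array platform gives each probe set, 1 row per gene. Of the 8 genes, 7 were measured among 22180 genes tested. Fosl1 appears only on a probe set that the platform assigns to Ccdc85b and Fosl1 together, so it has no value of its own here. The cells were mouse embryonic stem cells of the NG4 line, which carries a green fluorescent reporter of Nanog in a 129/Sv background and was kept on gelatin with the cytokine LIF. All 9 samples were transduced with a pLKO.1 lentivirus and selected with puromycin at 2 μg/mL for 72 h: 3 with a control hairpin (shControl), 3 with a hairpin against Phf5a (shPhf5a) and 3 with a hairpin against Paf1 (shPaf1). Phf5a is a subunit of the SF3b splicing complex, and Paf1 names a complex that accompanies elongating RNA polymerase II. By the title of the series, the question is how Phf5a acts on transcriptional elongation in pluripotent cells. Each target has a single hairpin, so loss of a target and any other effect of its hairpin cannot be told apart.

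AP-1 is a pair of basic leucine zipper proteins that binds short DNA sites. Jun proteins pair with each other or with Fos proteins, Fos proteins need a Jun partner, and Atf3 pairs with Jun proteins. Growth factors and stress act on several of these genes through MAP kinases, and Fos and Jun are textbook immediate early genes, switched on within minutes, whose RNA polymerase pauses shortly after the start site. Jun, Junb and Jund have no introns, whereas Fos, Fosb, Fosl2 and Atf3 are spliced. In pluripotent cells Jun is known mainly as a factor whose expression goes with leaving pluripotency and as a barrier to reprogramming.

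The stretches upstream of Jun, Atf3 and Fos are shown because Jun and Atf3 had the largest differences in shPhf5a and because these promoters hold sites of the kind that AP-1 and related factors bind. Each holds the 250 bases before the start site (RefSeq, GRCm38.p6, minus strand for Jun at chr4:95052223-95052472 and for Atf3 at chr1:191183334-191183583, plus strand for Fos at chr12:85473640-85473889), 5′ to 3′ along the gene. Capitals mark matches to the motifs described after them.
Jun: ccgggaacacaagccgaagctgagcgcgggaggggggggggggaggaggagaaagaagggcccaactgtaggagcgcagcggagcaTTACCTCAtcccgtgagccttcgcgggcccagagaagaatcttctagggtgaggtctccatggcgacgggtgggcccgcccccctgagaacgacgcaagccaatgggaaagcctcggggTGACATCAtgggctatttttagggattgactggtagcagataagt
Atf3: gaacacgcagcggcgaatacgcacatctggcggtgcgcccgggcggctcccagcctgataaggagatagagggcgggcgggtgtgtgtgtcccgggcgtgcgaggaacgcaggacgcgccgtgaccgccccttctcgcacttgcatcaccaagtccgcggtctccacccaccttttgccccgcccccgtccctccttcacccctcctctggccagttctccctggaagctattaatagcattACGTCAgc
Fos: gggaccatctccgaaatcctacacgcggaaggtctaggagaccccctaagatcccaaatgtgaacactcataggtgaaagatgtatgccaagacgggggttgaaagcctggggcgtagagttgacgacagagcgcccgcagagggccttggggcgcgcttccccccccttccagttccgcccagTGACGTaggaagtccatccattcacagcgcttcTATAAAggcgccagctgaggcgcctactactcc

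In Jun the capitals mark TTACCTCA, which starts at position -164 counted from the start site, and TGACATCA, which starts at -45. These are the well-known distal and proximal sites through which Jun proteins and Atf2 act on the Jun gene itself. Searched on both strands, TTACCTCA was present in 0.728% and TGACATCA in 2.93% of 32851 promoters of the same length, and Jun alone among the 7 members listed in the promoter table held either. Both motifs were searched because they are known sites of Jun, so their match in Jun follows from that choice and is not a finding. Atf3 and Fos hold TGACGT, the first 6 bases of the cyclic AMP response element TGACGTCA, starting at -8 (Atf3, where it lies on the opposite strand and reads ACGTCA) and at -66 (Fos); 6.47% of promoters have it on either strand. Fos also has the TATA box TATAAA on the strand of the gene, starting at -33, as do 7.59% of promoters. The AP-1 site pattern TGANTCA, with any base in the middle (6.75% of promoters), the full TGACGTCA (1.55%) and the CArG box of serum response factor (1.47%), all searched on both strands, were in none of these windows of the 7 members. Bases further upstream than 250 were not searched, so a site there, in Fos or another member, would have been missed. The windows of Junb, Jund, Fosb and Fosl2 held no match to any motif searched. Whether matches go with the differences in expression was not tested. A motif match is a description of the letters and does not show binding.

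Both hairpins lowered their target: Phf5a was at 34.4%, 55.9% and 39.6% of the control mean in shPhf5a replicates 1, 2 and 3, and Paf1 at 37.7%, 38.9% and 38.03% in shPaf1. Phf5a was also lower in shPaf1 (-0.57 log2 units, SE 0.16, adjusted p = 0.0183) and Paf1 in shPhf5a (-0.25, SE 0.08, adjusted p = 0.0267). The shPhf5a arrays spread more widely around their group mean over all genes (SD of the deviations 0.09 to 0.13 log2 units) than the other 6 arrays (0.07 to 0.08), with replicate 2 the widest. Embryonic stem cell markers had a mean level between 10.39 and 10.89 log2 units on every array, where the median gene was at 6.70. Among them Dppa5a, singled out after its values were seen, lay under the median gene, at 6.12 in shControl, 6.04 in shPhf5a and 5.95 in shPaf1. Whether the replicates were separate cultures is not in the labels, and every p-value rests on the spread among these 9 arrays, part or all of which may be technical. Levels are given in log2 units as deposited, and a difference is the difference of 2 group means of 3 arrays each.

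AP-1 genes were higher after both knockdowns. In shPhf5a 6 of the 7 measured genes rose and none fell by limma at an adjusted p under 0.05, while 16.7% of all genes tested rose and 20.7% fell (37.4% passed in either direction). In shPaf1 all 7 rose, where 18.0% of all genes rose and 17.8% fell (35.8% in either direction). The median difference over the 7 genes was 0.44 in shPhf5a and 0.59 in shPaf1, against -0.03 and -0.01 over all genes. In shPhf5a all 3 arrays lay above all 3 control arrays for 6 of the 7 genes (19.9% of all genes), and in shPaf1 for all 7 (23.2%). Both comparisons use the same 3 control arrays, so they are not independent of each other. Both counts include Jund on its brighter probe set, and its second probe set did not rise in either knockdown.

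**Figure D1:**
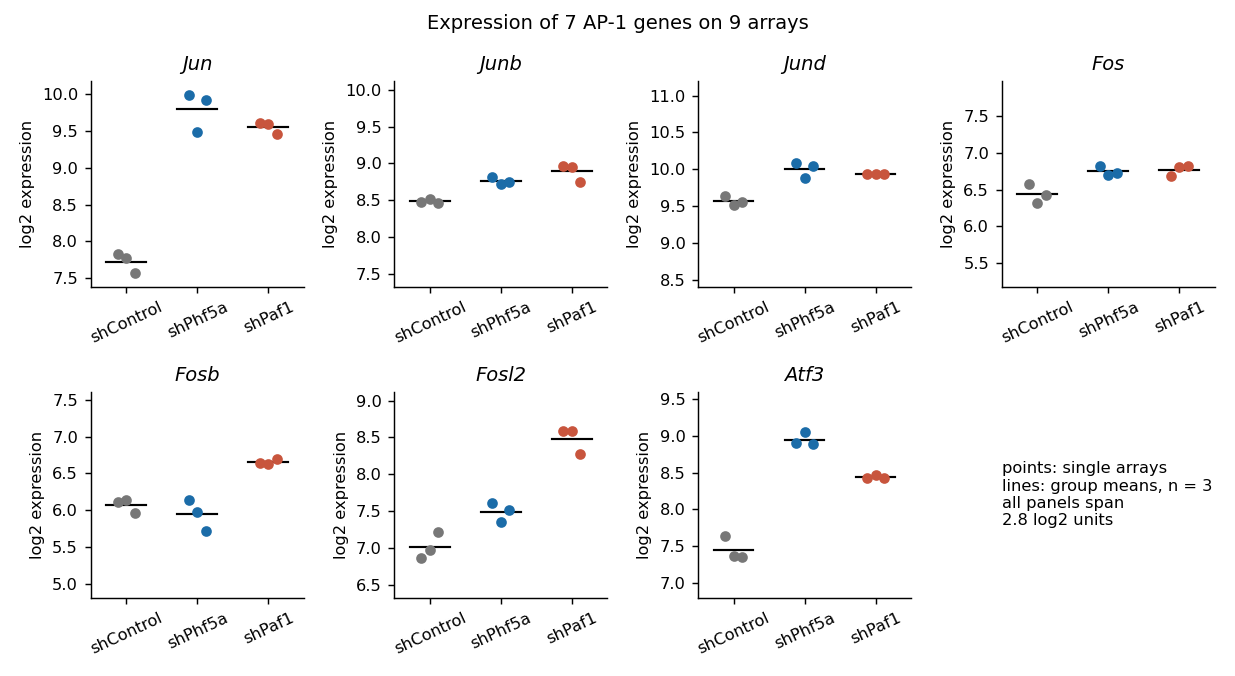
Log2 expression (vertical axis, log2 units) of 7 AP-1 genes on the 9 arrays, by hairpin; points are arrays, lines are means of 3 arrays, and every panel covers the same width in log2 units. Jun rose from between 7.57 and 7.83 in the controls to 9.45 or more on every knockdown array, whereas Fosb was above the controls in shPaf1 and overlapped them in shPhf5a.

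Jun, the central subunit that can pair with itself and with every Fos protein, had the largest difference of the family in both knockdowns. Its level was 7.83, 7.78 and 7.57 in the control arrays, 9.99, 9.49 and 9.92 in shPhf5a and 9.61, 9.59 and 9.45 in shPaf1. Every knockdown array was above every control array, and within shPhf5a replicate 2 was the lowest. The difference from control was 2.07 in shPhf5a (SE 0.13, 95% interval 1.79 to 2.35, 4.205-fold, adjusted p = 4.55e-06). In shPaf1 it was 1.82 (SE 0.13, 95% interval 1.54 to 2.11, 3.54-fold, adjusted p = 4.99e-06).

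Junb, a Jun protein that activates fewer promoters and can oppose Jun, rose less. The control arrays read 8.48, 8.52 and 8.47, those of shPhf5a 8.81, 8.72 and 8.75, and those of shPaf1 8.97, 8.95 and 8.75. The ranges of the controls and of each knockdown did not overlap. The difference was 0.27 in shPhf5a (SE 0.06, adjusted p = 0.00689) and 0.40 in shPaf1 (SE 0.06, adjusted p = 0.00068), or 1.21-fold and 1.32-fold.

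Jund, the member of the Jun family that is made in most resting cells, has 2 probe sets, and they disagreed. The brighter read 9.64, 9.51 and 9.55 in the controls, 10.09, 9.89 and 10.04 in shPhf5a and 9.94, 9.94 and 9.93 in shPaf1. By this probe set Jund was higher by 0.44 in shPhf5a (SE 0.06, adjusted p = 0.000361) and by 0.37 in shPaf1 (SE 0.06, adjusted p = 0.000914). The dimmer read 7.96, 7.94 and 7.80 in the controls, 7.87, 7.83 and 7.61 in shPhf5a and 7.55, 7.42 and 7.18 in shPaf1. In a fit of all probe sets with 1 symbol it differed by -0.13 in shPhf5a (SE 0.10, adjusted p = 0.364) and fell by 0.52 in shPaf1 (SE 0.10, adjusted p = 0.00266). The mean of the 2 probe sets differed by 0.15 in shPhf5a (adjusted p = 0.1) and by -0.07 in shPaf1 (adjusted p = 0.452), where the other alternatives gave adjusted p of 0.00563 or less, so the direction of Jund in shPaf1 depends on the probe set. Where on the transcript the 2 probe sets lie was not analysed here.

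**Figure D2:**
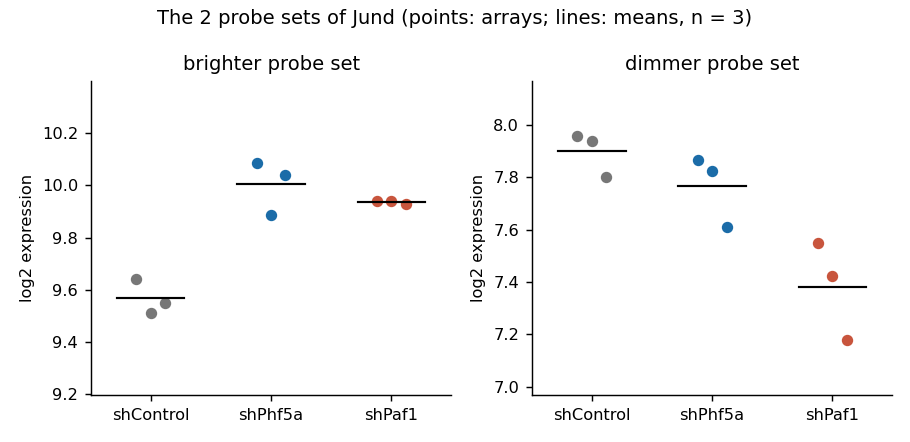
Log2 expression (vertical axis, log2 units) on the 2 probe sets of Jund by hairpin; points are arrays, lines are means of 3 arrays, and both panels cover the same width in log2 units. The brighter probe set is higher on all knockdown arrays, and the dimmer is lower on all 3 shPaf1 arrays than on any control array.

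Fos, the founding Fos protein, had small differences. Its level was 6.58, 6.32 and 6.42 in the controls, 6.83, 6.70 and 6.73 in shPhf5a and 6.69, 6.81 and 6.82 in shPaf1. All knockdown arrays were above all control arrays. The difference was 0.31 in shPhf5a (SE 0.07, adjusted p = 0.00712) and 0.33 in shPaf1 (SE 0.07, adjusted p = 0.00536), or 1.24-fold and 1.25-fold. The mean of Fos over the arrays (6.65) and that of Fosb (6.22) lay below the median of all genes (6.70).

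Fosb, known for its long-lived splice form in neurons, was the gene that rose after a single knockdown. It read 6.11, 6.13 and 5.96 in the controls, 6.13, 5.98 and 5.72 in shPhf5a, and 6.64, 6.63 and 6.70 in shPaf1. The shPhf5a arrays overlapped the controls and the shPaf1 arrays were above both. The difference from control was -0.13 in shPhf5a (SE 0.10, adjusted p = 0.354) and 0.59 in shPaf1 (SE 0.10, 1.503-fold, adjusted p = 0.000827). With array weights Fosb passed as lower in shPhf5a (-0.25, adjusted p = 0.0455), with adjusted p from 0.0455 to 0.914 over the alternatives.

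Fosl2 encodes Fra-2, a Fos protein without the strong activation domain of Fos. It read 6.86, 6.98 and 7.21 in the controls, 7.61, 7.35 and 7.51 in shPhf5a and 8.59, 8.59 and 8.28 in shPaf1. The 3 groups did not overlap and stood in the order shControl, shPhf5a, shPaf1. The difference was 0.48 in shPhf5a (SE 0.11, 1.39-fold, adjusted p = 0.00821) and 1.47 in shPaf1 (SE 0.11, 2.77-fold, adjusted p = 1.02e-05).

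Atf3, a stress-induced partner of Jun proteins that represses many of its targets, also separated the 3 groups, in another order. The controls read 7.64, 7.37 and 7.35, the shPhf5a arrays 8.90, 9.05 and 8.89 and the shPaf1 arrays 8.42, 8.46 and 8.43. Here shPhf5a was highest and shPaf1 lay between it and the controls. The difference was 1.49 in shPhf5a (SE 0.08, 2.82-fold, adjusted p = 2.83e-06) and 0.99 in shPaf1 (SE 0.08, 1.98-fold, adjusted p = 1.32e-05).

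The knockdowns were then compared directly. Of the 7 genes Atf3 was higher in shPhf5a, and Fosl2 and Fosb were lower there than in shPaf1, while 4 did not pass (12.7% of all genes were higher, 16.3% lower and 29.0% passed in either direction). The 1 gene that was higher is a share near the 12.7% of all genes. Atf3 differed by 0.51 (SE 0.08, adjusted p = 0.00113), Fosl2 by -0.99 (SE 0.11, adjusted p = 0.000175) and Fosb by -0.72 (SE 0.10, adjusted p = 0.000406), and for each of these the arrays of the knockdowns did not overlap. Jun differed by 0.25 (95% interval -0.03 to 0.53, adjusted p = 0.189), Junb by -0.13 (-0.27 to 0.01, adjusted p = 0.168), Jund by 0.07 on its brighter probe set (-0.07 to 0.20, adjusted p = 0.489) and Fos by -0.02 (-0.18 to 0.15, adjusted p = 0.908). For Jun the interval reaches 0.53 log2 units, so the values do not show that the knockdowns act alike.

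Some of those 4 results turned on single arrays. Without shPhf5a replicate 2 the Jun difference between the knockdowns was 0.40 and passed (adjusted p = 0.00495), as it did with array weights (0.32, adjusted p = 0.0256), in a range from 0.00495 to 0.453 over the alternatives. Without shPaf1 replicate 3 Junb passed as lower in shPhf5a (-0.20, adjusted p = 0.0247; range 0.0247 to 0.424). On the mean of its probe sets Jund passed as higher in shPhf5a (0.23, adjusted p = 0.0261; range 0.0261 to 0.814).

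**Figure D3:**
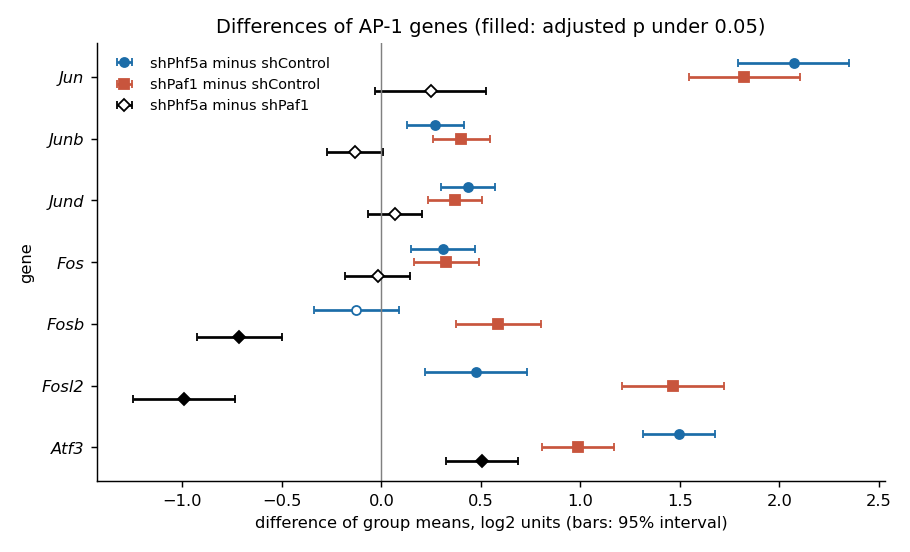
Differences of group means in log2 units (horizontal axis) for the 7 AP-1 genes (vertical axis) in the 3 comparisons, with 95% intervals from limma; filled symbols have an adjusted p under 0.05. Jun lies near 2 in both knockdowns, and the black symbols of Fosl2 (-0.99), Fosb (-0.72) and Atf3 (0.51) lie away from 0.

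Among genes that pair with AP-1 subunits or belong to the related Maf family, 12 of 13 listed were measured. In shPhf5a 3 of the 12 rose and in shPaf1 4, with none falling (medians -0.03 and 0.04). Over all genes 16.7% rose and 20.7% fell in shPhf5a, and 18.0% rose and 17.8% fell in shPaf1, shares against which the counts of this and the other pathway lists are set. Atf7, a close relative of Atf2, rose most, by 1.19 in shPhf5a (SE 0.07, adjusted p = 4.68e-06) and by 1.38 in shPaf1 (SE 0.07, adjusted p = 1.43e-06). Atf2, which pairs with Jun and is activated by stress kinases, rose by 0.52 (SE 0.07) and 0.39 (SE 0.07), and Mafg, a small Maf protein, by 0.39 (SE 0.07) and 0.37 (SE 0.07).

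Upstream of AP-1, the kinases JNK and p38 phosphorylate Jun and Atf2. Of 13 measured genes of these pathways 4 rose and 5 fell in shPhf5a, and 4 rose and 3 fell in shPaf1 (medians -0.14 and 0.11). The 3 that fell in shPaf1 are a share near the 17.8% of all genes. The p38 kinase genes Mapk12 and Mapk13 fell by 1.24 (SE 0.11) and 0.88 (SE 0.13) in shPhf5a and by 0.58 (SE 0.11) and 0.88 (SE 0.13) in shPaf1. Mapk11, another p38 kinase gene, fell by 1.23 (SE 0.11) in shPhf5a and was at -0.24 (SE 0.11, adjusted p = 0.136) in shPaf1. Mapk14, the p38 kinase gene with the highest level here, was named after its values were seen. By limma it was at -0.19 (SE 0.08, adjusted p = 0.083) in shPhf5a and rose by 0.39 (SE 0.08, adjusted p = 0.0025) in shPaf1. Map2k6, which activates p38, fell by 0.61 (SE 0.05) and by 1.13 (SE 0.05). The JNK genes Mapk8 and Mapk9, singled out for their role after their values were seen, differed by -0.14 (adjusted p = 0.0563) and 0.18 (adjusted p = 0.0174) in shPhf5a and by -0.10 (adjusted p = 0.152) and -0.06 (adjusted p = 0.409) in shPaf1. Transcript levels say nothing of the activity of these kinases.

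ERK signalling and serum response factor act on Fos and other immediate early promoters. Of 14 measured genes of this list 3 rose and 5 fell in shPhf5a (median -0.12), and 7 rose and 1 fell in shPaf1 (median 0.24). In the direct comparison 8 of the 14 were lower in shPhf5a and 0 higher, by limma, against 16.3% and 12.7% of all genes. Mef2d and Mef2a, transcription factors that act on the Jun promoter in several cell types, rose by 0.90 (SE 0.13) and 0.52 (SE 0.06) in shPhf5a and by 1.14 (SE 0.13) and 0.86 (SE 0.06) in shPaf1. Mrtfa, an actin-regulated coactivator of serum response factor, rose by 0.72 (SE 0.08) in shPaf1 and was at 0.12 (adjusted p = 0.29) in shPhf5a, a difference that passed (-0.60, adjusted p = 0.000462). Rps6ka5, a kinase downstream of ERK and p38, fell by 0.62 (SE 0.11) in shPhf5a and was at -0.31 (adjusted p = 0.0532) in shPaf1. The direct comparison of Rps6ka5 did not pass by limma (-0.31, adjusted p = 0.0703). Srf itself, also singled out afterwards, was at -0.14 (adjusted p = 0.265) and rose by 0.54 (SE 0.09, adjusted p = 0.000898) in shPaf1.

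Genes that end AP-1 signalling include phosphatases of MAP kinases and factors that degrade Jun protein or the messages of early genes. Of 14 measured 8 rose and 2 fell in shPhf5a (median 0.21), and 9 rose and none fell in shPaf1 (median 0.31), where 16.7% and 18.0% of all genes rose. Dusp8, a phosphatase of JNK and p38, rose by 1.43 (SE 0.14) and 1.93 (SE 0.14). Dusp1 and the ubiquitin ligase gene Fbxw7 rose by 0.78 (SE 0.11) and 0.77 (SE 0.07) in shPhf5a, against 0.18 (adjusted p = 0.249) and 0.23 (adjusted p = 0.0195) in shPaf1. The ERK phosphatase genes Dusp4 and Dusp5 rose by 1.78 (SE 0.07) and 1.42 (SE 0.08) in shPaf1, against 0.42 (adjusted p = 0.000838) and 0.04 (adjusted p = 0.739) in shPhf5a. The direct comparison passed for each of these 4 genes (Dusp1 0.60, Fbxw7 0.54, Dusp4 -1.35 and Dusp5 -1.37, adjusted p of 0.00252 or less).

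Other immediate early genes were counted in the same way. Of 27 measured 9 rose and 7 fell in shPhf5a (median -0.02), and 16 rose and 1 fell in shPaf1 (median 0.29), and in the direct comparison 15 were lower in shPhf5a and 3 higher. Of all genes 16.7% rose and 20.7% fell in shPhf5a, 18.0% rose and 17.8% fell in shPaf1, and 16.3% were lower and 12.7% higher in the direct comparison. The 7 that fell in shPhf5a and the 3 higher in the direct comparison are shares near those of all genes. The matrix protein genes Ccn1 and Ccn2 rose by 2.16 (SE 0.16) and 1.505 (SE 0.05) in shPhf5a and by 1.86 (SE 0.16) and 1.73 (SE 0.05) in shPaf1, and the antiproliferative gene Btg2 by 1.86 (SE 0.08) and 2.21 (SE 0.08). Egr1, the classic early gene that ERK and serum response factor induce together with Fos, was named after its values were seen. It fell by 0.78 in shPhf5a (SE 0.10, adjusted p = 0.000185) and rose by 0.61 in shPaf1 (SE 0.10, adjusted p = 0.000762), and the knockdowns differed from each other by -1.39 (adjusted p = 1.08e-05).

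Of 19 genes known as AP-1 targets in other cells 16 were measured, of which 3 rose and 6 fell in shPhf5a, and 7 rose and 3 fell in shPaf1 (medians -0.05 and -0.01). All genes also went both ways (16.7% up and 20.7% down, 18.0% up and 17.8% down), and the 3 that rose in shPhf5a and the 3 that fell in shPaf1 are near those shares. In shPaf1 the matrix protease gene Mmp9 rose by 2.65 (SE 0.12), the chemokine gene Ccl2 by 1.08 (SE 0.09) and the urokinase receptor gene Plaur by 1.02 (SE 0.10), while in shPhf5a Mmp9 rose by 0.38 (adjusted p = 0.0301), Plaur rose by 0.41 (adjusted p = 0.00749) and Ccl2 was at -0.14 (adjusted p = 0.274). In shPhf5a the protease inhibitor gene Timp1 fell by 1.604 (SE 0.22), Tgfb1 by 1.35 (SE 0.13), and the heme oxygenase gene Hmox1 rose by 0.76 (SE 0.11). In shPaf1 Timp1 was at -0.45 (adjusted p = 0.155), Tgfb1 at -0.23 (adjusted p = 0.223), and Hmox1 fell by 0.38 (SE 0.11, adjusted p = 0.0216). The direct comparison passed for all 6 (adjusted p of 0.00315 or less).

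**Figure D4:**
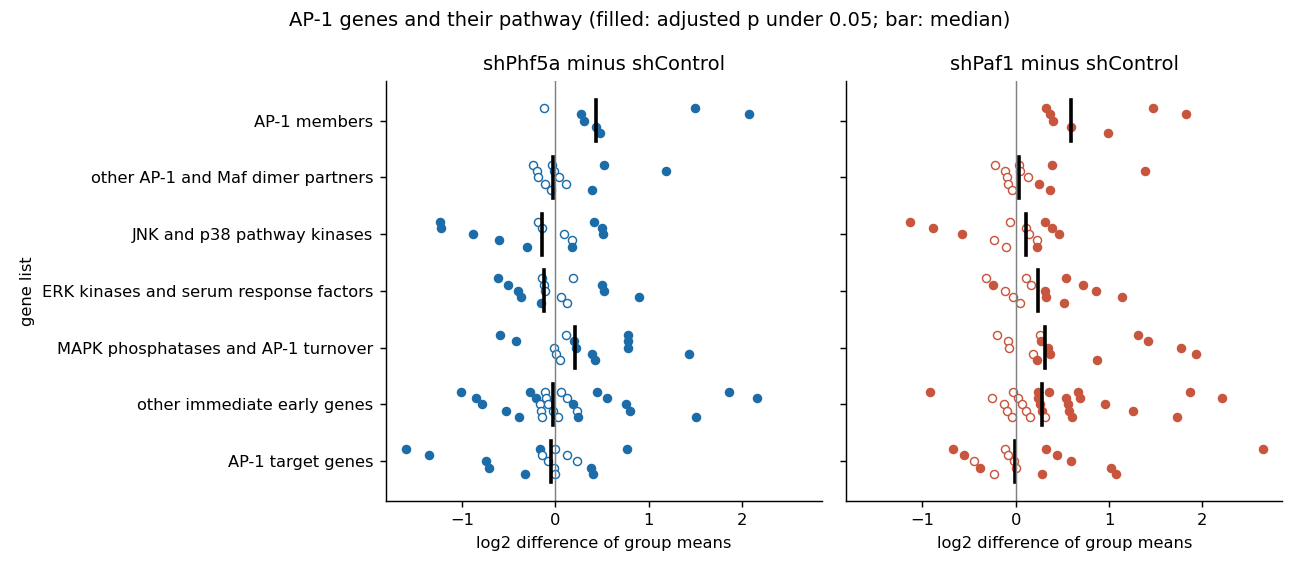
Log2 differences from control (horizontal axis) of single genes in 7 gene lists (vertical axis) in shPhf5a and shPaf1; filled points have a limma adjusted p under 0.05, and black bars are list medians. The AP-1 genes have medians of 0.44 and 0.59, the immediate early genes -0.02 and 0.29, and the target genes lie on both sides of 0 in both panels.

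For the 4 members that changed by at least 1.5-fold, the genes most like them across the 9 arrays were found by Pearson's r on log2 levels, among genes whose group means spanned at least 0.5 log2 units. The 9 arrays form 3 groups, so r describes mainly how group means fall. Nearest to Jun were Ccn1 (r = 0.999) and Herpud2 (r = 0.998; differences of 0.63 in shPhf5a and 0.54 in shPaf1). Nearest to Atf3 were the syndecan gene Sdc4 (r = 0.990; 1.59 and 1.07) and the kinase gene Ripk4 (r = 0.989; 1.54 and 0.96). Fosl2 was closest to the tight junction gene Cldn6 (r = 0.992; 0.47 and 1.45) and the kinase gene Src (r = 0.989; 0.25 and 0.66), and Fosb to the peptidase gene Dpp7 (r = 0.976; -0.16 and 0.56) and the GTPase gene Rhob (r = 0.970; -0.11 and 0.57).

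Markers of cell types were counted beside the AP-1 genes. Over all genes 16.7% rose and 20.7% fell in shPhf5a, and 18.0% rose and 17.8% fell in shPaf1. Of 10 embryonic stem cell markers 7 fell in shPhf5a and 8 in shPaf1, none rose, their mean level was 10.84 to 10.89 in the controls, 10.41 to 10.66 in shPhf5a and 10.39 to 10.40 in shPaf1, and Tdgf1 fell by 0.84 (SE 0.11) in shPhf5a and Nanog by 0.84 (SE 0.06) in shPaf1. Of 9 trophectoderm markers 8 rose and 0 fell in shPhf5a, and 5 rose and 1 fell in shPaf1. Their mean level was 7.15 to 7.26 in the controls, 8.21 to 8.53 in shPhf5a and 8.07 to 8.16 in shPaf1. Their median difference was 1.22 in shPhf5a and 0.36 in shPaf1. In shPaf1 the largest rises were those of Krt18 (3.21), Krt8 (2.68) and Hand1 (1.78), so the rise of the mean was not spread evenly over the list. Tfap2c, named after its values were seen, fell there by 0.30. Of 9 primitive endoderm markers 5 rose and 1 fell in shPhf5a, and 5 rose and 0 fell in shPaf1, and their mean level was 7.34 to 7.45 in the controls, 7.73 to 8.05 in shPhf5a and 7.82 to 7.86 in shPaf1. Of 12 fibroblast markers 1 rose in shPhf5a (Pdgfra 0.58) and 3 in shPaf1 (Pdgfra 0.96, Dcn 0.57 and Col1a1 0.22), and none fell. Dcn, at 5.30 in the controls and 5.87 in shPaf1, stayed under the median gene (6.70). The mean level of the fibroblast list was 5.92 to 5.98 in the controls, 5.93 to 5.96 in shPhf5a and 6.12 to 6.18 in shPaf1. Among 8 measured macrophage and blood markers Cd68 fell by 0.42 in shPhf5a and rose by 0.44 in shPaf1, and the other 7 passed in neither. In the controls Cd68 was at 10.13, while the other 7 lay between 5.04 and 6.46, under the median gene. The mean level of the list, which includes Cd68, was 6.28 to 6.41, 6.15 to 6.30 and 6.37 to 6.44 in the 3 groups. The counts of fibroblast markers and of macrophage and blood markers that rose or fell are near the shares of all genes or under them. So are the 1 trophectoderm marker and the 1 primitive endoderm marker that fell. In bulk RNA a change in the share of cells of a type and a change per cell cannot be told apart, and the part of other cell types in the AP-1 differences was not tested.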

How the data were processed

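Total RNA (125 ng) was labelled with whole-transcript kits and hybridized to Affymetrix arrays, per the labels' protocols. The authors deposited log2 expression values, 1 per probe set and array; the log base is inferred from their range (4.35 to 13.7). For background correction, normalization, software and build, the method is not given in the sources used here. If the base were another, fold changes would differ. No scan date or slide was used, and no batch was tested. Array medians lay between 6.22 and 6.31, and the number of arrays limits the precision.

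Of 33793 probe sets 23521 had 1 platform symbol, 1814 several and 8458 were unlisted; of the first kind 23328 were found by gene ID in RefSeq. The brightest probe set of each of 22180 genes was fitted with limma 3.58.1 in R 4.3.3 (lmFit and eBayes, 1 mean per group, all 9 arrays), with Benjamini-Hochberg adjustment over all genes at 0.05; the fit was tested on simulated data. The members and gene lists were chosen with earlier results of these data known. Named were the members, the targets, up to 3 called genes of the largest difference per list and comparison against control, and, for each member changed at least 1.5-fold, 2 genes with the highest Pearson's r above the median level, without predicted loci and small RNAs; other names are said to be chosen later. Alternatives were quantile normalization, centring, a level filter, the mean over probe sets, all probe sets, a trended robust variance, array weights, only 6 arrays, the replicate block and leaving out each array.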

Additional observations from a re-analysis of the deposited data

Results flagged for a closer look

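The responses of 3 AP-1 genes differed between the knockdowns by limma's test of the difference itself (shPhf5a minus shPaf1): Fosl2 by -0.99, Fosb by -0.72 and Atf3 by 0.51 log2 units. In this comparison 29.0% of all genes passed, 12.7% as higher and 16.3% as lower. A signal outside the genes tested lies on the probe set that the platform assigns to Ccdc85b and Fosl1 together. It read 6.87, 6.61 and 6.76 in the controls, 8.28, 7.55 and 7.85 in shPhf5a and 8.20, 8.24 and 7.94 in shPaf1. In a fit of all probe sets it was higher by 1.15 in shPhf5a (SE 0.17, adjusted p = 0.00081) and by 1.38 in shPaf1 (SE 0.17, adjusted p = 0.00024), on all 6 knockdown arrays, and which gene gave the signal cannot be told apart.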

How the results depend on the processing

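Of 372 recomputed member differences 362 kept their direction and their side of the threshold. The differences of Jun and Atf3 from control ranged from 1.98 to 2.23 and 1.44 to 1.59 in shPhf5a, and from 1.75 to 1.88 and 0.93 to 1.08 in shPaf1. Fos and Fosb are too dim for the level filter and have no value there. With array weights 1 member was lower in shPhf5a. Between the knockdowns 1 member was lower among genes above the median level, where fewer members were tested. There 2 members were higher on the mean over probe sets and 2 with array weights, and 1 to 2 when single arrays were left out (2 without shPhf5a replicate 2). The mean over probe sets turned Jund in shPaf1 to -0.0749, and leaving out single arrays moved the Fos difference between the knockdowns from -0.059 to 0.0077, around 0. Beyond the disagreement of the Jund probe sets, the cause was not tested.

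With the replicate number as a block 6, 7 and 3 members passed in the 3 comparisons, as without it, and 8210, 7858 and 6255 genes in all, where 8306, 7930 and 6430 passed without it. Deviations of arrays with the same number correlated between -0.06 and 0.11 (1 of 9 pairs over 0.1). Those of arrays with other numbers correlated between -0.18 and 0.10 (1 of 18 pairs over 0.1). In 8 of 18 cases an array correlated best with its own number. Correlations this weak cannot decide whether arrays of the same number were handled together, and the labels give only the number.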
